A study of Mus musculus with 30 samples.

Results

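Back skin of D6-deficient mice was compared with back skin of WT mice over every day of a TPA time course, to find genes whose RNA differs by genotype whatever the day and the treatment. All arrays of the series were used, 30 of 30: the 15 labelled D6 KO and the 15 labelled WT, chosen by genotype alone, with day as a factor. The mice were females of 8 to 12 weeks on a mixed 129 and C57BL/6 background, and RNA came from shaved dorsal skin. TPA was painted on at 50 μM, 3 times at intervals of 24 hours, and skin was taken 1, 2, 4 or 6 days after the last application. Control skin stands as day 0, called untreated in the titles and acetone-treated in the study's methods. By genotype and day the arrays, Affymetrix whole-genome arrays for mouse, form 10 groups of 3, and the number of arrays limits the precision. The mice lack the gene in the germ line, so that control skin differs by genotype as well.

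D6, the product of Ccbp2 (now Ackr2), is an atypical chemokine receptor. It binds inflammatory CC chemokines, takes them into the cell and has them degraded, without the signal that moves leukocytes, and in skin it is known from lymphatic endothelium. TPA is a phorbol ester that activates protein kinase C and inflames skin, with thickening of the epidermis and entry of leukocytes.

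Values below are log2 intensities, and a difference is D6-deficient minus WT, averaged over the 5 days. The medians of the arrays over the tested probe sets ran from 6.53 to 6.73. The hybridization controls, RNAs added to every array, separated the arrays into 13 with a mean between 9.85 and 10.31 and 17 with a mean between 10.58 and 10.93. The lower set held 7 D6-deficient and 6 WT arrays, the higher set 8 and 9, and the lower set had no D6-deficient array of day 6. Differences within a single set come from a fit with day and genotype as additive factors and are not means over the 5 days. D6-deficient day 6 replicate 3 stood apart in its effect, since the number of probe sets past the test rose most when it was left out. Keratins of the epidermis were the mark of the tissue, with Krt14 at a mean of 13.58. Xist, which is transcribed from the inactive X chromosome, was between 11.70 and 13.02 on every array on its brightest probe set, and the Y-linked genes tested for the same purpose lay between 2.60 and 4.19. Keratins of the hair follicle varied with the day in both genotypes. The mean of the 18 probe sets was between 4.69 and 5.04 on days 0, 2 and 4, between 6.41 and 8.72 on day 1 and between 7.90 and 11.64 on day 6.

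The D6 gene was lower on every D6-deficient array on 1 of its 3 probe sets. On this probe set the D6-deficient arrays ran from 3.30 over a median of 3.47 to 3.86, and the WT arrays from 4.16 over 4.98 to 5.76. The genotypes did not overlap, and the difference was -1.41 (SE 0.11, limma adjusted p = 1.29e-08), with -1.41 in the lower and -1.28 in the higher hybridization set. On another the D6-deficient arrays ran from 4.55 over 4.91 to 5.42 and the WT arrays from 5.14 over 5.63 to 6.26, a difference of -0.69 (SE 0.10, adjusted p = 5.20e-05) with overlap. On the third the difference was -0.07 (SE 0.11, adjusted p = 0.795). Where these probe sets lie relative to the deletion was not analysed here. The first serves as the check of the labels since it separates the genotypes, so it was chosen after its values were seen.

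Over all days, 1988 of 36029 tested probe sets (5.52%) passed the test, that is, had a Benjamini-Hochberg adjusted limma p under 0.05. Of these, 824 (2.29%) were higher and 1164 (3.23%) lower in D6-deficient skin, and they stood for 1494 genes of 17769. Most differences were small. The median size of a difference was 0.37 among the passing probe sets and 0.07 among all tested, the median SE was 0.067 and the median SD between arrays of a group 0.187. A difference of 2-fold or more was found in 94 passing probe sets and one over 3-fold in 30 (0.0833%), of which 13 (0.0361%) were higher and 17 (0.0472%) lower. The difference kept its sign on all 5 days in 1279 of the passing probe sets, 64.3%, and in 4467 (12.4%) of all tested. A direct test for variation of the difference between days passed in 253 of the 1988, or 12.7%, beside 915 of all tested (2.54%), and the difference over the TPA days differed from that in control skin in 714 of all tested (1.98%). Day 2 carried part of the count, which was 876 without that day and 1253 without day 1, and it was 3239 without D6-deficient day 6 replicate 3. With the hybridization set as a covariate 2131 passed, 1940 of them the same, while 81 passed within the lower and 101 within the higher set alone. The fits within a set used the additive model, which passed 1507 probe sets on all 30 arrays. The study's methods name unpaired t-tests at p under 0.05 and state no adjustment, and the study compared the genotypes at each time point. The t-test used here set the 15 D6-deficient against the 15 WT arrays and left day out. Variation between days therefore counts in its error. It passed 2662 probe sets unadjusted and 216 with the same adjustment.

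In 7 tested probe sets (0.0194%) all arrays of a genotype lay on the same side of all arrays of the other. AU019157, a transcript without a known product, was the 1 with D6-deficient arrays above. They ran from 5.26 over 5.71 to 6.88, and the WT arrays from 3.76 over 4.23 to 4.97. The other 6 were lower in D6-deficient skin: the D6 gene itself, Lztfl1, 2010315B03Rik, Lars2, Tm2d2 and 2700046G09Rik. On this Lztfl1 probe set the D6-deficient arrays ran from 2.79 over 3.07 to 3.41 and the WT arrays from 4.25 over 5.48 to 6.17. Lztfl1 regulates traffic into cilia. On 2010315B03Rik the D6-deficient arrays ran from 4.16 over 4.66 to 5.76 and the WT arrays from 6.70 over 7.56 to 7.86. Both probe sets separated the genotypes in control skin and on each day after TPA. The brightest Lztfl1 probe set, with a mean of 9.40, went the other way at 0.26. Lars2, the leucyl-tRNA synthetase of mitochondria, ran from 6.50 over 6.74 to 7.17 in D6-deficient and from 7.58 over 7.93 to 8.69 in WT skin. Tm2d2 was lower by a difference of -1.19 (SE 0.07) and 2700046G09Rik by -1.01 (SE 0.10). Leaving out 1 day gave other counts, 27 without day 0, 11 without day 1, 11 without day 2, 19 without day 4 and 16 without day 6. The plot of 8 genes by array shows these separations beside genes in which the arrays of the genotypes overlapped.

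**Figure D1:**
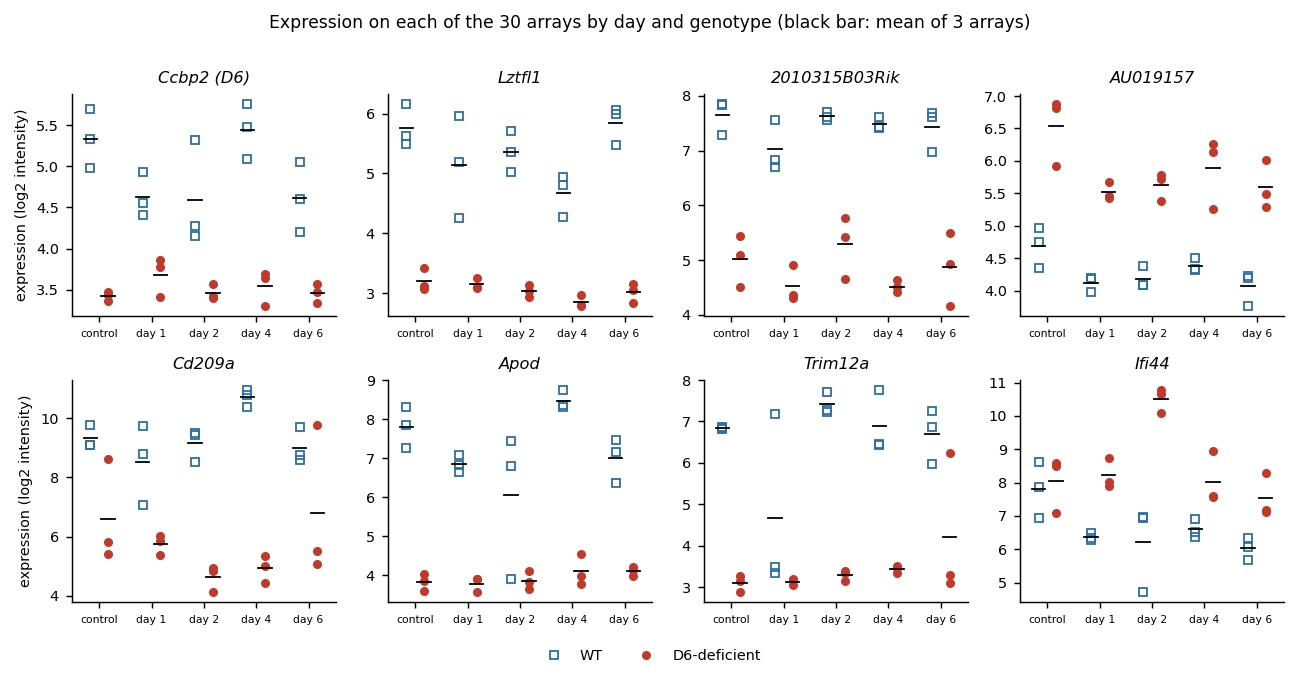
Log2 intensity of 8 probe sets on each array, by genotype and day, with 1 point for each of the 30 arrays and a bar at the mean of 3. Ccbp2, Lztfl1, 2010315B03Rik and AU019157 separate the genotypes on every day, whereas Cd209a, Apod and Trim12a have single arrays at the level of the other genotype and Ifi44 lies apart most on day 2.

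Of these 7 probe sets, 4 belong to the D6 gene and its neighbours on chromosome 9: Ccbp2, Lztfl1, Lars2 and 2010315B03Rik. Among genes within 100 neighbours of the D6 gene in the order of the GRCm38.p6 reference, 34 of 222 tested probe sets passed, 15.3%, beside 5.04% on the rest of chromosome 9, 5.84% on the other chromosomes and 5.52% of all tested. They were 9 higher and 25 lower and belonged to 23 genes. Within 50 neighbours the share was 19.9% (29 of 146), and within 200 it was 10.5% (38 of 363). On 1 side the chromosome ends before 100 neighbours are reached, and the last gene with data there lies 44 genes from Ccbp2. The call was kept with each array left out in 27 of the 34, and the test for variation between days passed in 1, Ccr9. Within the hybridization sets alone, 9 and 8 passed. Some of the 34 are genes of muscle or neutrophils, whose lists below moved in the same directions: Klhl40 at -0.66, Hhatl at -0.61 and Xirp1 at -0.56 of muscle, and Ltf at 1.31 of neutrophils. The Xirp1 call was kept in 13 of the 30 fits that left out 1 array, and it was lost without day 1, 2, 4 or 6. Whether the genotypes were littermates, and the share of 129 background in each, is not given in the sources used here. The part that strain differences in genes or under probes had near the D6 gene was not tested. The plot of differences by gene order gives each probe set at its distance from the D6 gene.

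**Figure D2:**
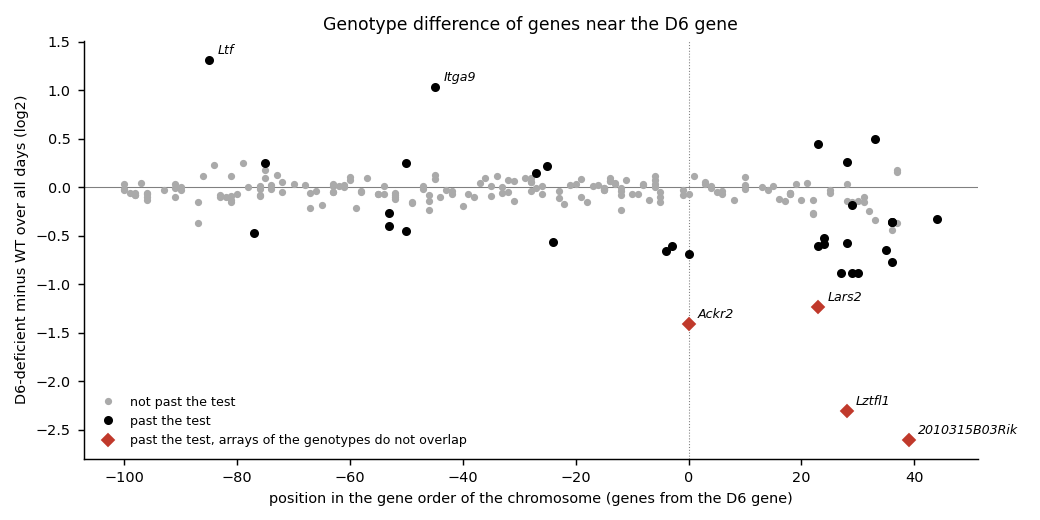
Difference between the genotypes over all days (log2, D6-deficient minus WT) for each tested probe set of the genes around the D6 gene, by position in the gene order of the chromosome with the D6 gene at 0. Of 222 probe sets 34 pass the test, and the lowest are 2010315B03Rik at -2.60, Lztfl1 at -2.30 and the D6 gene at -1.41.

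The neighbours include receptors that chemotactic leukocytes carry. Ccr2, which draws monocytes to Ccl2, was lower, most so on 1 of its 4 probe sets. There the D6-deficient arrays ran from 5.45 over 5.96 to 6.33 and the WT arrays from 6.10 over 6.62 to 7.52. The ranges met in a few arrays, and the difference was -0.77 (SE 0.10, adjusted p = 3.26e-05). Ccr2 on its brightest probe set was at -0.36 (adjusted p = 0.0299). Its call was kept in 21 of the 30 fits that left out 1 array and lost without day 0, 1, 4 or 6, and on day 2 its mean was 9.92 in D6-deficient and 9.73 in WT skin. Ccr3, the receptor of eosinophils, was lower by a difference of -0.64 (SE 0.14, adjusted p = 0.00561), with a loss of the call without day 1. Ccr9, a receptor of gut-homing lymphocytes, was lower at -0.88 (SE 0.08, adjusted p = 4.23e-07) on 1 of its 4 probe sets, with -1.98 in control skin and -0.61 over the TPA days. A second Ccr9 probe set passed at -0.18 (adjusted p = 0.0398), but in only 13 of the 30 fits that left out 1 array and not without day 0, 2 or 6. Ccr1 was higher on 1 of its 2 probe sets, at 0.50 (SE 0.14, adjusted p = 0.0283), while the other gave -0.34 and did not pass (adjusted p = 0.363). The call was lost without day 1 or day 2 (adjusted p = 0.0542 and 0.480). It was also lost without D6-deficient day 0 replicate 2, D6-deficient day 1 replicate 2, WT day 2 replicate 3 or WT day 4 replicate 2 (adjusted p = 0.0511, 0.0539, 0.0525 and 0.0508). Of all 19 tested probe sets of CC chemokine receptors, 7 passed, 1 higher and 6 lower, with a median of -0.18, beside 0.0008 for all tested probe sets. In bulk skin, fewer cells of a type and less RNA per cell cannot be told apart.

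Other neighbours follow. Itga9, an integrin subunit found on lymphatic endothelium and epidermis, was higher on 1 of its 3 probe sets on D6-deficient arrays, from 7.12 over 7.50 to 8.35, than on WT arrays, from 5.88 over 6.49 to 7.17. A single WT array, day 4 replicate 3, reached into the D6-deficient range, and the difference of 1.04 (SE 0.08, adjusted p = 1.34e-08) varied only between 0.88 and 1.18 from day to day. Its other 2 probe sets did not pass, at 0.13 (adjusted p = 0.176) and 0.08 (adjusted p = 0.575). Fyco1, an adaptor that moves autophagosomes along microtubules, was lower at -0.89 (SE 0.12) on 1 of its 2, Slc6a20a, a transporter of proline, at -0.88 (SE 0.12), and Limd1, a scaffold protein, at -0.53 and -0.58 on its 2 probe sets. In 3 of the neighbours the probe sets of a single gene pointed in opposite directions. Lztfl1 was -2.30 and -0.57 on 2 probe sets and 0.26 on another. Lars2 was -1.23, -0.61 and 0.45, and Azi2, which takes part in the activation of TBK1, -0.45 and 0.25. Such opposite calls occurred in 16 of 263 genes with at least 2 passing probe sets, 6.08%, and 7 of the 16 lie on chromosome 8.

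Chromosomes 8 and 3 held larger shares than chromosome 9. On chromosome 8, 180 of 1544 tested probe sets passed, 11.7%, and on chromosome 3, 148 of 1544, 9.59%. Chromosome 14 followed with 7.09%, chromosome 5 with 6.52% and chromosome 9 with 6.43%. The remaining autosomes and the X chromosome lay between 3.66% and 6.26%. In stretches of 50 consecutive coding genes, the median share was 4.65% over the 414 stretches with at least 20 tested probe sets. A share of 20% or more was found in 9 stretches, 4 of them on chromosome 8. From Rbpms to F11 on chromosome 8, 21 of 70 probe sets passed, 30%. They were 12 higher and 9 lower, so that the stretch had no common direction. From Slc18a1 to Kxd1, on the same chromosome, 17 of 67 passed, 25.4%, and from Unc13a to Lsm6 18 of 82, 22%. The stretch that begins at Nktr and holds the D6 gene had 22 of 74, 29.7%, of which 19 were lower. On chromosome 5, 13 of 61 passed between Steap4 and Gsap, 21.3%. These stretches were singled out after their values were seen.

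**Figure D3:**
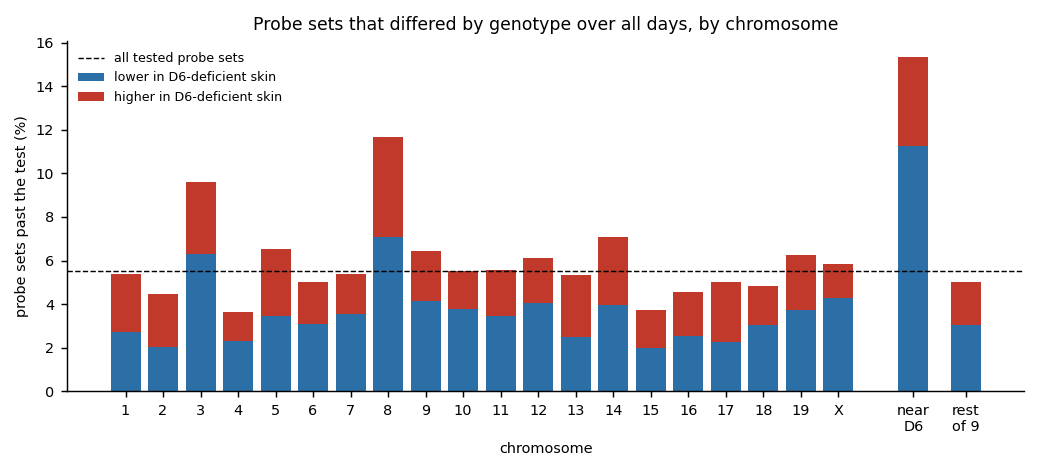
Percent of tested probe sets past the test over all days, by chromosome and direction, with the genes within 100 neighbours of the D6 gene and the rest of chromosome 9 shown apart. Chromosome 8 reaches 11.7%, chromosome 3 9.59% and the neighbours of the D6 gene 15.3%, against 5.52% of all tested probe sets.

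The genes with the largest differences included Cd209a, Apod and Trim12a, which were lower, and Serpina1b, which was higher. Cd209a is a C-type lectin of monocyte-derived dendritic cells, related to human DC-SIGN. Its D6-deficient arrays ran from 4.13 over 5.39 to 9.76, and its WT arrays from 7.07 over 9.44 to 10.95. The D6-deficient arrays of day 0 replicate 3 at 8.61 and day 6 replicate 3 at 9.76 lay among the WT arrays, and the lowest WT array was day 1 replicate 2. The difference was -3.60 (SE 0.38, adjusted p = 1.52e-06). Its relatives on chromosome 8, taken up after their values were seen, did not move as a block. Cd209e was lower at -2.14 (SE 0.24, adjusted p = 4.25e-06) and Cd209d at -1.31 (SE 0.17, adjusted p = 3.15e-05), while Cd209g was higher at 0.78 (SE 0.14, adjusted p = 0.00104). Cd209b, Cd209c and Cd209f did not pass, with differences between -0.42 and -0.15.

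Apod, a lipid-binding lipocalin of fibroblasts, ran from 3.57 over 3.90 to 4.53 on the D6-deficient arrays and from 3.91 over 7.27 to 8.75 on the WT arrays. A single WT array, day 2 replicate 2, lay at the D6-deficient level. The difference was -3.30 (SE 0.23, adjusted p = 1.22e-09). A brighter probe set of the gene, with a mean of 11.26, gave -0.22 (SE 0.08, adjusted p = 0.0925) and did not pass. Trim12a, of a family with antiviral ubiquitin ligases, ran from 2.88 over 3.28 to 6.24 on the D6-deficient arrays and from 3.34 over 6.86 to 7.76 on the WT arrays. The exceptions were D6-deficient day 6 replicate 2 on the high side and WT day 1 replicates 2 and 3 on the low side, and the difference was -3.06 (SE 0.32, adjusted p = 1.26e-06). The same 3 arrays were the exceptions for Trim34, its neighbour on chromosome 7, at -2.04 (SE 0.24, adjusted p = 8.61e-06). Galc, the lysosomal enzyme that breaks down galactosylceramide, ran from 3.77 over 4.22 to 5.32 in D6-deficient skin and from 4.13 over 6.72 to 8.01 in WT skin. The difference was -2.45 (SE 0.26, adjusted p = 2.20e-06), and WT day 0 replicate 2 at 4.13 was the array on the other side. The same array was low for Trip11, a Golgi protein also encoded on chromosome 12, at 3.10. The Trip11 difference was -2.01 (SE 0.25, adjusted p = 1.08e-05), and WT day 2 replicate 3 at 3.97 lay closer to the D6-deficient arrays as well. The D6-deficient Trip11 arrays, from 2.89 to 3.45, lay within the 2.60 to 4.19 of the Y-linked genes, as did those of the D6 gene and Lztfl1 above and most of those of Apod and Trim12a. The sizes of these differences are therefore bounded by the floor of the arrays and set by the WT level.

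Further decreases followed in Phgdh, the first enzyme of serine synthesis, at -2.80 (SE 0.58, adjusted p = 0.00401) and a call that was lost without day 0. Its D6-deficient arrays ran from 4.12 over 7.47 to 9.68, and the upper of them lay within the WT range of 8.22 to 10.21. Adamdec1, a protease of macrophages and dendritic cells, was at -1.82 (SE 0.22, adjusted p = 9.29e-06). Lrat, which esterifies retinol, was at -1.67 (SE 0.21, adjusted p = 1.11e-05), and Cacna2d1, a subunit of calcium channels, at -1.52 (SE 0.18, adjusted p = 8.29e-06), and most D6-deficient arrays of both lay within the range of the Y-linked genes, which bounds these sizes as well. Adi1, of the methionine salvage pathway, had a mean of 5.59 in D6-deficient and 7.09 in WT skin (SE of the difference 0.37, adjusted p = 0.0155), and its call was lost without day 1. The WT arrays of Adi1 were split, some between 5.16 and 5.79 beside the D6-deficient arrays and the others from 7.48 to 9.09. D6-deficient day 6 replicate 2 was high, at 8.23. Among the 15 decreases, all with a difference of the same sign on each day, G530011O06Rik on the X chromosome stood at -1.86 (SE 0.23).

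Serpina1b, an alpha-1 antitrypsin gene, had the largest increase among probe sets with a single gene symbol. The D6-deficient arrays ran from 7.36 over 9.57 to 11.59 and the WT arrays from 3.63 over 4.34 to 9.52. Every D6-deficient array was high, and the WT arrays were split, 8 low and 7 at the D6-deficient level, on every day. The split followed the hybridization controls in part: all 7 were in the higher set, and all 6 WT arrays of the lower set were among the 8. For Serpina1b the difference was 5.90 within the lower set (adjusted p = 4.76e-04) and 1.96 within the higher (adjusted p = 0.316), where the call was lost. The difference was 3.47 (SE 0.65, adjusted p = 0.00151), with 0.99 in control skin and 4.09 over the TPA days, and the test of that contrast between states did not pass (adjusted p = 0.410). The low WT arrays of Serpina1b, from 3.63 to 4.34, lay in or just above the 2.60 to 4.19 of the Y-linked genes. The floor of the arrays therefore bounds these sizes. BC018473 at 2.85 (SE 0.45, adjusted p = 2.39e-04) and BC023969 at 1.88 (SE 0.20, adjusted p = 1.45e-06) are transcripts without a known product. For BC018473, D6-deficient day 6 replicate 2 at 3.23 lay below every WT array. Some WT arrays, from 7.18 to 7.96, lay among the other D6-deficient arrays. Several more, from 3.64 to 4.15, lay within the range of the Y-linked genes, which bounds the size of this difference. Abhd1, of a hydrolase family, was higher at 1.46 (SE 0.19, adjusted p = 1.71e-05), and Pik3ap1, an adaptor of phosphoinositide 3-kinase in leukocytes, at 1.36 (SE 0.24, adjusted p = 7.51e-04). For these 2 genes the difference lay between 0.83 and 1.89 on every day.

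The other increases included genes of interferon responses and of neutrophils. Ifi44 was at 1.87 (SE 0.23, adjusted p = 1.08e-05), and H28 (now Ifi44l) had a mean of 7.91 in D6-deficient and 6.20 in WT skin (SE of the difference 0.31, adjusted p = 0.00113). Slfn4, of myeloid cells, had means of 9.30 and 7.79 (SE 0.17, adjusted p = 4.10e-06). Ifi202b, of the interferon-inducible p200 family, was at 1.60 (SE 0.38, adjusted p = 0.0122), and Gbp1, a guanylate-binding protein, at 1.65 (SE 0.44, adjusted p = 0.0257). For Gbp1, WT day 2 replicate 1 at 3.86 and WT day 4 replicate 1 at 3.83 lay far below the other WT arrays. Those ran from 7.30 to 10.13, beside 8.23 to 10.94 on the D6-deficient arrays. Ifi202b lost its call without day 0 or without day 2, and Gbp1 without day 1 or without day 2. Hpx, the heme-binding plasma protein hemopexin, was at 1.59 (SE 0.28, adjusted p = 7.46e-04). Ngp and Ltf, proteins of neutrophil granules, were at 1.88 (SE 0.36, adjusted p = 0.00178) and 1.31 (SE 0.32, adjusted p = 0.0145), and neither passed without day 2, nor Ltf without day 1. Defb3, a beta-defensin of the epidermis, was at 1.47 (SE 0.25, adjusted p = 5.17e-04). In these genes the arrays of the genotypes overlapped, and day 2 was the day with the largest difference except for Ifi202b and Defb3, where it was day 0.

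Of the 30 leading probe sets, 30 kept the call with each array left out and with the hybridization set as a covariate, 24 kept it whichever day was left out, and 6 kept it under every setting tried. All 30 kept their sign within each hybridization set, and 10 passed within the lower and 17 within the higher set. The test for variation between days did not pass in 27, and the contrast of TPA days with control skin did not pass in 30, which does not show that these differences are equal on all days. Of the leading genes, 13 have other tested probe sets, 26 in number. Only 6 of these 26, of 5 genes, passed in the same direction, and 2 passed in the opposite one. The opposite ones were Trim34 at 0.69 and Lztfl1 at 0.26. For Trip11 the 5 other probe sets lay between -0.01 and 0.08, for Phgdh the 3 others between -0.08 and 0.20, and for Galc another was at 0.15. The other probe set was at -0.02 for Trim12a, 0.27 for Lrat and 0.12 for Pik3ap1, and did not pass. A difference on such a probe set is thus a measurement of that probe set and not of the gene's whole RNA.

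Control skin and TPA-treated skin share no arrays, so that their differences can be set side by side. In control skin 565 probe sets passed (1.57%) and 44 were also over 3-fold (0.122%). Over the TPA days 2034 passed (5.65%) and 38 were over 3-fold (0.105%). In both, 129 passed, 100 of them in the same direction (28 higher and 72 lower) and 29 in opposite directions. The 100 are 17.7% of those passing in control skin and 4.92% of those passing over the TPA days. Over 3-fold in both and in the same direction were 7 probe sets, 15.9% of the 44 and 18.4% of the 38. The sign in the other skin was the same for 38 of the 44 and for 31 of the 38, beside 53.6% of all tested probe sets. Among all that passed it was the same for 313 of the 565 in control skin, 55.4%, and for 1177 of the 2034 over the TPA days, 57.9%, little more than among all tested. The control-skin count rests on few arrays: it was 141 without D6-deficient day 0 replicate 1, 180 without D6-deficient day 0 replicate 3, 334 without WT day 0 replicate 1, 208 without WT day 0 replicate 2 and 235 without WT day 0 replicate 3. It was also 362 without day 1 and 953 without day 6, whose arrays enter it through the estimate of spread alone. The TPA count was 570 without day 2 and 3284 without D6-deficient day 6 replicate 3. Differences close to equal in both were those of 2010315B03Rik, at -2.64 in control skin and -2.59 over the TPA days, and Itga9 at 1.18 and 1.00.

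**Figure D4:**
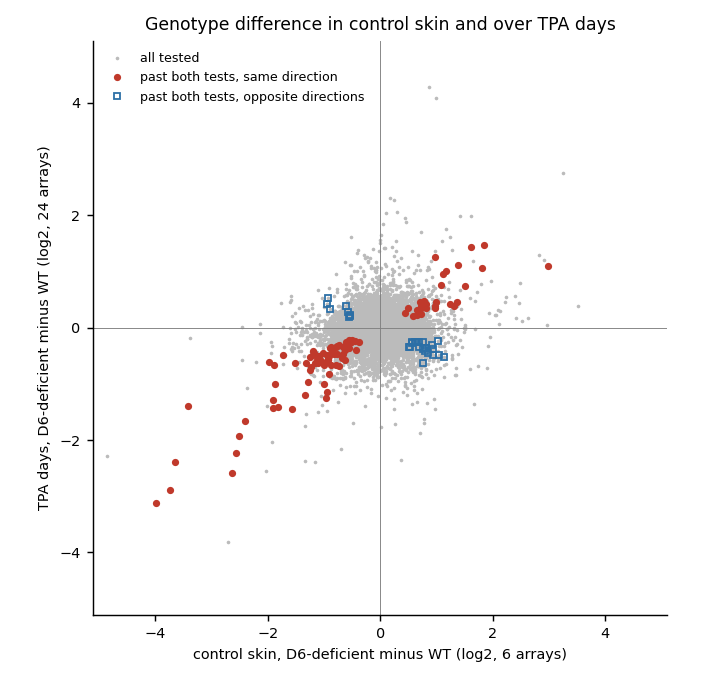
Difference between the genotypes in control skin (horizontal axis, log2) and over the TPA days (vertical axis, log2), with 1 point for each tested probe set and those past both tests marked. The points past both tests lie mainly along the diagonal, 100 of 129 in the same direction, with Apod at -3.98 and -3.13 and 2010315B03Rik at -2.64 and -2.59.

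To set apart differences that do not need any single day, probe sets were counted that passed with all days and again with each of the 5 days left out in turn, in the same direction throughout. This rule was chosen after the data were seen. It was met by 506 probe sets (1.40%), 146 higher and 360 lower, which is 25.5% of those passing over all days and includes 25 of the 30 that were over 3-fold. The count was 780 without D6-deficient day 6 replicate 3, and 502 of the 506 were among these. On all 5 days the difference had the same sign in 456 of them, 90.1%. A difference of 2-fold or more was found in 67. Near the D6 gene, 23 of 222 tested probe sets met the rule, 10.4%. On chromosome 8 they were 71, 4.60%, on chromosome 3 45, 2.91%, and on chromosome 9 41, 2.51%, beside 1.45% of all probe sets placed on a chromosome. The genes that follow were taken from the 67 after their values were seen. On chromosome 8 they were Hgsnat, a lysosomal acetyltransferase, at -1.04 (SE 0.08, adjusted p = 8.98e-09), B3gnt3, a glycosyltransferase, at -1.11 (SE 0.11, adjusted p = 5.05e-07) and Ocel1 at 1.21 (SE 0.13, adjusted p = 1.62e-06). Lats1, a kinase of the Hippo pathway, was higher at 1.03 (SE 0.08, adjusted p = 1.34e-08). Adat2, which edits transfer RNA, was higher at 1.20 (SE 0.09, adjusted p = 1.19e-08), and Bmp1, a protease that matures collagen, at 1.17 (SE 0.13, adjusted p = 4.10e-06). Mybph, a myosin-binding protein, was lower at -1.18 (SE 0.21, adjusted p = 0.00103), as was Cd300ld, a receptor of myeloid cells, at -1.16 (SE 0.21, adjusted p = 8.38e-04). H60c, a ligand of the receptor NKG2D in skin, met the rule at -1.81 (SE 0.22, adjusted p = 1.01e-05) although its difference was 0.36 in control skin and -2.35 over the TPA days.

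Gene lists for skin and its cells were read by the number of tested probe sets past the test and by their median, beside 5.52% and a median of 0.0008 for all tested. Genes that type I interferon induces made up the list with the most increases. Of its 33 probe sets 30 passed, all higher, of 22 genes, and the median was 0.51. Many of these genes are among those the study listed from the same arrays as over 3-fold higher on day 2. The count of this list is therefore not independent of that result. Irf7, the factor that amplifies interferon production, was at 1.09 (SE 0.11, adjusted p = 7.72e-07), Cxcl10, a chemokine for T cells, at 1.14 (SE 0.11, adjusted p = 3.46e-07), and Ifit1, which binds viral RNA, at 1.19 (SE 0.16, adjusted p = 3.55e-05). Ifit1 lost its call without day 2. These differences were not equal from day to day. The variation between days passed in 30 of the 33 and the contrast of TPA days with control skin in 18, and the median was -0.18 in control skin and 0.72 over the TPA days. On day 2 the mean of the list was between 8.77 and 9.24 on the D6-deficient arrays and between 6.73 and 6.91 on the WT arrays. The genotypes were also apart on day 1, between 7.25 and 7.64 against 6.69 and 6.88, and on day 4, between 7.73 and 8.06 against 7.35 and 7.62. They overlapped on day 0, between 6.88 and 7.21 against 7.09 and 7.50, and on day 6, between 6.66 and 7.07 against 6.53 and 6.86. Without day 2, 5 of the 33 passed. Those that met the rule of any day left out were also 5, Irf7, Cxcl10, Ifi44, Oas1a and Oasl2. Among them Irf7 and Cxcl10 did not keep their sign on all days, and Ifi44 did. Of the 30 passing probe sets of the list, 3 kept their sign on all days. With the hybridization set as a covariate 30 passed with a median of 0.52. Within the lower set 0 passed by limma with a median of 0.76, and within the higher set 1 with 0.61, where 31 of 33 had an unadjusted p under 0.05 over all arrays and 22 by a t-test.

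Promoters of these genes are shown since members moved together. They are the RefSeq sequences of GRCm38.p6 from 250 bases before to 50 after the start, and 15 of the 22 genes had 1. A motif of 2 copies of GAAA with any 2 bases between them, the core of the element that interferon regulatory factors bind, was searched on both strands, and it was chosen with the values known. It occurred in 9 of the 15, 60%, and in 943 of all 27025 promoters of the same length, 3.49%. The genes were listed as induced by interferon beforehand, so this share describes the list and does not test the differences seen here. Of the 23 genes of the list 22 passed, so that passing members could not be set against the rest. Of the 5 genes above, 2 hold it. Cxcl10 (chr5:92348840-92349139, minus strand) has 1 match that begins 213 bases before the start. Oas1a (chr5:120907476-120907775, minus strand) has 2 overlapping matches, which begin 20 and 14 bases before it. Ifi44 (chr3:151749861-151750160, minus strand) has no match in this window. Capitals mark the motif in the sequences, written 5′ to 3′. A match is a description of letters and not a site.
Cxcl10: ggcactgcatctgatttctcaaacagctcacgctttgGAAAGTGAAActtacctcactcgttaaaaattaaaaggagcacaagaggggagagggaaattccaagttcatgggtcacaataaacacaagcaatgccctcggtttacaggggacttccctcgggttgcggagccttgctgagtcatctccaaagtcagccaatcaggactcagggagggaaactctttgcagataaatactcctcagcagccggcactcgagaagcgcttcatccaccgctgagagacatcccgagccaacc
Oas1a: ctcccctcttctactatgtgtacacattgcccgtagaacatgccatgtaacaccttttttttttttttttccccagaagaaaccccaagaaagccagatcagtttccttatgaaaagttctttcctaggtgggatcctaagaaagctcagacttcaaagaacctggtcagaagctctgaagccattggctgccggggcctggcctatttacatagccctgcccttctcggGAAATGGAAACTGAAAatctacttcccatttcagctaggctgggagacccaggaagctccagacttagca
Ifi44: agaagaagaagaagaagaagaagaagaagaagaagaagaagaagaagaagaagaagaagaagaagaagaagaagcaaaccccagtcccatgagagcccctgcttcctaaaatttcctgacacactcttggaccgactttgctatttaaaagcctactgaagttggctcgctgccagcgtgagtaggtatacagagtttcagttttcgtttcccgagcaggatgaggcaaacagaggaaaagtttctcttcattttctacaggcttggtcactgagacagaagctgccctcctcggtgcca

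Skeletal muscle genes made up the list with the most decreases. Of its 24 probe sets 17 passed, all lower, of 14 genes, with a median of -0.47. Actn3, the alpha-actinin of fast fibres, was at -0.91 (SE 0.13, adjusted p = 7.72e-05), Pvalb, which binds calcium in fast fibres, at -0.68 (SE 0.12, adjusted p = 0.00115), and Myh4, a fast myosin, at -1.06 (SE 0.21, adjusted p = 0.00249). Muscle lies under the skin, and the part that the amount of muscle in a sample had in these differences was not tested. The brightest member was Acta1, an actin, with a mean of 13.91. In control skin the list did not separate the genotypes, with array means between 11.49 and 11.78 in D6-deficient and between 11.66 and 11.80 in WT skin. On day 1 the means were between 9.45 and 9.97 against 10.14 and 10.83, on day 2 between 9.82 and 10.04 against 10.45 and 10.59, and on day 6 between 9.49 and 10.12 against 10.39 and 10.97. On these days every D6-deficient array lay below every WT array, while on day 4 they overlapped. The contrast of TPA days with control skin did not pass for Actn3 (-0.60, adjusted p = 0.440) or Pvalb (-0.65, adjusted p = 0.350). The rule of any day left out was met by 11 of the 24. With the covariate 16 passed with a median of -0.47, within the lower set 1 with -0.58 and within the higher set 0 by limma with -0.35, and over all arrays 21 had an unadjusted p under 0.05 and 12 by a t-test.

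Among the ligands that D6 binds, 2 of 10 passed, Ccl3 at 0.90 (SE 0.20, adjusted p = 0.00607) and Ccl4 at 0.81 (SE 0.12, adjusted p = 1.29e-04), both higher. These calls need day 2: without it 0 passed, and without day 6 there were 4. The median of the list was 0.01, and the variation between days passed in 4 of the 10. On day 2 the list mean was between 9.26 and 9.31 on the D6-deficient arrays and between 8.19 and 8.33 on the WT arrays. On the other days the genotypes overlapped, and on day 6 the middle array was at 7.88 in D6-deficient and 8.28 in WT skin. By limma 5 of the 10 had an unadjusted p under 0.05, and by the t-test, which leaves day out, 0. Other atypical receptors were measured beside D6. In that list of 9 probe sets, 3 passed, all lower: the 2 of the D6 gene and Ccrl1 (now Ackr4), which scavenges homeostatic chemokines, at -0.60 (SE 0.16, adjusted p = 0.0226), and the Ccrl1 call was lost without day 2. Of the lymphatic endothelial genes, 3 of 10 passed, all lower. Reln, secreted by lymphatic vessels, was at -0.79 (SE 0.15, adjusted p = 0.00138), Mmrn1, which marks lymphatic vessels, at -0.49 (SE 0.14, adjusted p = 0.0473), and Flt4, the receptor of VEGF-C, at -0.36 (SE 0.08, adjusted p = 0.00781). Mmrn1 passed in 7 of the 30 fits that left out 1 array, with an adjusted p of up to 0.0891. The median was -0.33, and 1 passed without day 1 and 1 without day 2, so that Reln is the member that did not need any day. Of 14 probe sets of blood endothelial genes 0 passed by limma, with 1 at an unadjusted p under 0.05 and 0 by a t-test, and a median of 0.08.

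Among neutrophil genes and the CXC chemokines that draw neutrophils, all passing probe sets were higher. Of 13 neutrophil probe sets 7 passed, with a median of 0.59. Besides Ngp and Ltf these included Camp, an antimicrobial peptide, at 1.15 (SE 0.27, adjusted p = 0.0100), and Mmp8, the neutrophil collagenase, at 0.83 (SE 0.17, adjusted p = 0.00436). Without day 2, 0 passed, and without day 4, 4, and Camp lost its call without day 1 as well. Of 7 probe sets of CXC chemokines 4 passed, with a median of 0.58. The largest difference was that of Cxcl2, 1.54 (SE 0.29, adjusted p = 0.00172). Its relatives were higher as well, Cxcl3 by 1.28 (SE 0.24, adjusted p = 0.00119), Cxcl5 by 0.83 (SE 0.16, adjusted p = 0.00225) and Cxcl1 by 0.58 (SE 0.13, adjusted p = 0.00634). Without day 2, 2 passed, with Cxcl3 and Cxcl5 lost, and Cxcl1 lost its call without day 4. Cxcl2 was the member that met the rule of any day left out, although its difference did not keep its sign on all days. By limma 6 of the 7 and 12 of the 13 neutrophil probe sets had an unadjusted p under 0.05, and by the t-test 0 and 3. The t-test leaves day out, and the array means of the CXC list ran from 4.59 to 11.40 over the days. Its counts therefore cannot decide whether the genotypes differ here. Within either hybridization set 0 of both lists passed. On day 2 the mean of the CXC list was between 8.15 and 8.63 on the D6-deficient arrays and between 5.72 and 7.34 on the WT arrays. The genotypes were also apart on day 0, between 4.88 and 5.31 against 4.59 and 4.83, and on day 4, between 10.69 and 11.40 against 9.40 and 10.67, and on days 1 and 6 they overlapped.

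Other leukocyte lists follow. Of 17 macrophage probe sets 2 passed, both higher: Msr1, a scavenger receptor, at 0.72 (SE 0.11, adjusted p = 1.02e-04), and Fcgr1, the high-affinity IgG receptor, at 0.41 (SE 0.11, adjusted p = 0.0227). Without day 2 neither call was made, with Msr1 at 0.38 (adjusted p = 0.123) and Fcgr1 at -0.020, and the Fcgr1 call was lost without day 1 as well. The count of the list was 1 without day 1, 1 without day 2, with another member, 3 without day 4 and 7 without day 6. Of 13 mast cell probe sets 4 passed, all higher, among them Tpsab1, a tryptase, at 0.78 (SE 0.21, adjusted p = 0.0244). Tpsab1 lost its call without day 1 or day 2. Without day 1 there was 1, without day 2 there were 0 and without day 4 there was 1. T cell genes passed in 0 of 15 probe sets by limma, with 0 at an unadjusted p under 0.05 and 0 by a t-test. Genes of dendritic and Langerhans cells passed in 0 of 20, with 2 at an unadjusted p and 0 by a t-test, and in 1 without day 0. Cd209a and Adamdec1 are not in this list. MHC class I and presentation genes passed in 4 of 29, all higher, with a median of 0.14. H2-T24 was at 0.75 (SE 0.16, adjusted p = 0.00424) and H2-Q8 at 0.58 (SE 0.10, adjusted p = 8.28e-04), and 2 passed without day 2 and 11 without day 6. H2-T24 lost its call without day 2 (0.42, adjusted p = 0.288), and H2-Q8 met the rule of any day left out. Red blood cell genes passed in 3 of 4, all higher, with Alas2, the first enzyme of heme synthesis in erythroid cells, at 1.01 (SE 0.23, adjusted p = 0.00672), but in 1 without day 2, with Alas2 lost, and in 0 without day 6.

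Epidermal lists had medians that differed between control skin and TPA-treated skin, and the contrast of these states, which passed in 1.98% of all tested probe sets, is given for each. Small proline-rich proteins and stefin A genes, which form and protect the cornified envelope, passed in 4 of 10, all higher, with a median of 1.63 in control skin and 0.28 over the TPA days, and the contrast in 2 of 10. By limma 9 of the 10 had an unadjusted p under 0.05, and by the t-test 0. The t-test leaves day out, and the array means of the list ran from 5.66 to 12.23 over the days. Its count therefore cannot decide whether the genotypes differ here. Within either hybridization set 0 passed. Sprr1a was at 0.54 (SE 0.14, adjusted p = 0.0200). The count was 0 without day 0, 0 without day 1, 0 without day 2 and 2 without day 4. Stress keratins and antimicrobial genes passed in 4 of 14, all higher, with a median of 0.60, and in 1 without day 0, 2 without day 1, 1 without day 2 and 2 without day 4. The contrast of states passed in 0 of 14. By limma 9 of 14 had an unadjusted p under 0.05, and by the t-test, which leaves day out, 0. Within either hybridization set 0 passed. Defb3 was the member that did not need any day. Terminal differentiation genes passed in 5 of 21, all lower, with a median of 0.58 in control skin and -0.54 over the TPA days. Here the contrast of TPA days with control skin passed in 12 of 21. Ivl, the envelope protein involucrin, was at -0.81 (SE 0.16, adjusted p = 0.00182), with 0.04 in control skin and -1.02 over the TPA days. The count was 16 without day 0, 0 without day 2 and 3 without day 4. The keratins of basal and differentiated epidermis passed in 0 of 9 by limma, with 2 at an unadjusted p under 0.05 and 0 by a t-test, and in 1 without day 0 and 3 without day 4. The contrast of states passed in 3 of the 9.

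**Figure D5:**
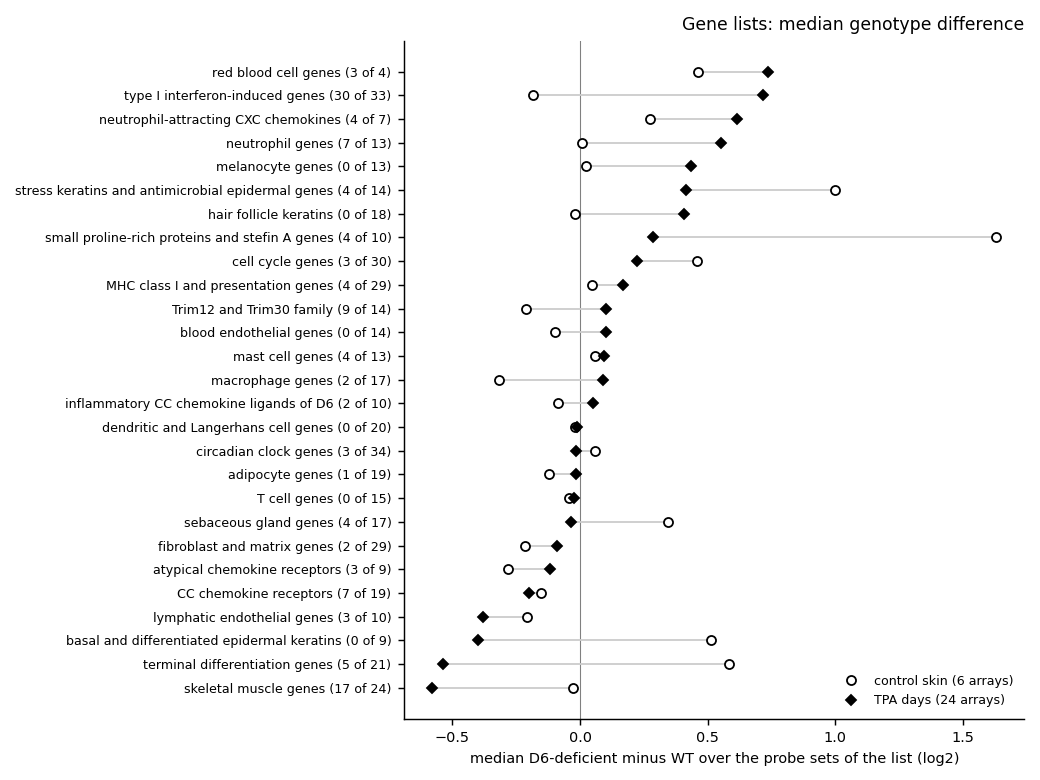
Median difference between the genotypes for each gene list (log2, D6-deficient minus WT), in control skin (circles, 6 arrays) and over the TPA days (diamonds, 24 arrays), with the probe sets past the test over all days of those tested in brackets. The interferon list goes from -0.18 to 0.72 and terminal differentiation from 0.58 to -0.54, while muscle goes from -0.03 to -0.58.

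Sebaceous gland genes passed in 4 of 17, all lower, with Far2, which makes wax alcohols, at -1.36 (SE 0.29, adjusted p = 0.00555) and Elovl3, which elongates fatty acids, at -1.20 (SE 0.28, adjusted p = 0.0114). In control skin both were higher, Far2 at 0.70 and Elovl3 at 0.79 with no call, and the list had a median of 0.34 there and -0.03 over the TPA days. None of the passing members kept its sign on all days. Neither call was made without day 2, when 0 of the list passed, nor without day 1, when 0 passed as well. Adipocyte genes passed in 1 of 19, Retn, the hormone resistin, at -0.83 (SE 0.13, adjusted p = 2.93e-04), whichever day was left out. Fibroblast and matrix genes passed in 2 of 29, Apod and Fbn1, the microfibril protein fibrillin, at -0.38 (SE 0.10, adjusted p = 0.0302), and in 1 without day 4 and 1 without day 6. The Fbn1 call was lost without day 2, day 4 or day 6 (adjusted p = 0.0948, 0.0849 and 0.0731), and it was kept in 22 of the 30 fits that left out 1 array, with an adjusted p of up to 0.0565. Hair follicle keratins passed in 0 of 18 by limma, with 1 at an unadjusted p under 0.05 and 0 by a t-test. Melanocyte genes passed in 0 of 13, with 3 at an unadjusted p under 0.05 by limma and 0 by a t-test, and in 1 without day 6. Cell cycle genes passed in 3 of 30, all higher, with a median of 0.28. Rrm2, which makes deoxyribonucleotides, was at 0.72 (SE 0.14, adjusted p = 0.00278) and met the rule of any day left out. The count was 1 without day 1, 1 without day 2, 5 without day 4 and 12 without day 6. Circadian clock genes passed in 3 of 34, 1 higher and 2 lower, with Arntl at -0.30 (SE 0.07, adjusted p = 0.00689) lower and Cry1 at 0.22 (SE 0.05, adjusted p = 0.00738) higher. The count was 1 without day 0, 1 without day 1 and 0 without day 2. The Arntl call was lost without day 1, 2 or 4 and the Cry1 call without day 0 or 2. The list of Trim12 and Trim30 genes on chromosome 7 passed in 9 of 14, 4 higher and 5 lower, with a median of -0.01, so that the list had no common direction.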

How the data were processed

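RNA of shaved back skin was measured on 30 Affymetrix whole-genome arrays for mouse. The authors processed them in GeneSpring GX by RMA (background correction, quantile normalization, summarization), and the deposited values are linear intensities without base-line transformation, of which the log2 was taken here. A further deposited text holds a sample sheet and was not used. After removal of 64 controls 45037 probe sets remained. The filter of the study's methods took away 20% of them by mean, the lowest 9008, and 36029 were tested. limma 3.58.1 (lmFit, eBayes; R 4.3.3) fitted 1 mean for each of the 10 groups. Contrasts were the genotype difference over all days, in control skin, over the TPA days, the latter minus control skin, and its variation between days as a moderated F test, with p adjusted by Benjamini-Hochberg within each. No array was left out, and the code was tested on simulated data. Alternatives changed the filter, scaling, model, variance prior, test, fold, hybridization set, replicate block, days and arrays. Within a single hybridization set, day and genotype entered the fit as additive factors.

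Named genes are the D6 probe sets, the 15 highest and 15 lowest passing differences with the same sign on all 5 days (1 probe set per gene), the passing genes within 100 neighbours of the D6 gene, up to 4 passing genes per list, the 5 passing probe sets with the smallest p for variation between days and the 5 with the largest contrast between states, and sex check genes. Comparisons, members and lists were chosen with earlier results of these data known. Gene order and promoters are those of RefSeq for GRCm38.p6. Python 3.11.15 with pandas 2.3.3 and matplotlib 3.10.9 drew the figures. Histology, PCR and antibody treatment were not analysed here, and 1 gene taken out of a list is not reported here.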

Additional observations from a re-analysis of the deposited data

Results flagged for a closer look

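The genotype difference over the TPA days differed from that in control skin in 714 of 36029 tested probe sets by limma, and it varied between the days in 915. The first count was 43 without day 2 and 1460 without day 6. It was 120 without D6-deficient day 0 replicate 1, 220 without D6-deficient day 0 replicate 3, and for WT day 0 it was 374 without replicate 1, 178 without replicate 2 and 429 without replicate 3. The count for variation between days was 487 without D6-deficient day 0 replicate 1, 604 without D6-deficient day 0 replicate 3, 486 without D6-deficient day 2 replicate 2, 576 without D6-deficient day 2 replicate 3, 1457 without D6-deficient day 6 replicate 3, 588 without WT day 0 replicate 2 and 432 without WT day 2 replicate 1.

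Among named genes the difference over the TPA days minus that in control skin was 2.14 for Ifit1, 1.78 for Ifit2, 1.52 for Irf7, 0.70 for Ddx58, 0.91 for Epsti1, 0.98 for D14Ertd668e and 1.57 for a probe set assigned to several genes. It was 1.38 for Ccr9, whose decrease was larger in control skin, and 1.42 for Msr1. It was -2.71 for H60c, -2.39 for Stfa3, -1.82 for Lce1l, -1.61 for Lce1g and -1.33 for Lce1c.

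Variation of the difference between days passed the limma test for Cxcl10 (adjusted p = 6.03e-06), Ccl4 (adjusted p = 2.01e-05), A530023O14Rik (adjusted p = 3.19e-05), Fcgr1 (adjusted p = 3.50e-04), Slfn4 (adjusted p = 0.00172), Ccl3 (adjusted p = 0.00207), Cxcl3 (adjusted p = 0.00468), Mmp8 (adjusted p = 0.00550), Cxcl5 (adjusted p = 0.0127), Ifi44 (adjusted p = 0.0183), Elovl3 (adjusted p = 0.0189), Hpx (adjusted p = 0.0272) and Far2 (adjusted p = 0.0396). The causes of these differences between states and days were not tested.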

How the results depend on the processing

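Leaving out 1 array at a time gave 1583 to 3239 passing probe sets over all days, 26 to 34 over 3-fold, 141 to 812 in control skin, 1599 to 3284 over the TPA days, 120 to 966 for the contrast between them, 432 to 1457 for variation between days, 7 to 10 without overlap, 28 to 38 near the D6 gene and -1.45 to -1.34 for the D6 probe set. The count over 3-fold was 19 with the lowest 50% left out, 19 in the low and 19 in the high hybridization set, 94 at 2-fold, 1988 with no fold and 15 with the mean of the probe sets of a gene. Over all days, 81 passed in the low and 101 in the high set, and 216 by the adjusted and 2662 by the unadjusted t-test. Without day 1 it was 1253, without day 2 876, and by gene means 1314 genes. Near the D6 gene 9 passed in the low and 8 in the high set, and 16 by the adjusted and 33 by the unadjusted t-test. Without overlap were 4 with the lowest 50% left out and 27, 11, 11, 19 and 16 without day 0, 1, 2, 4 and 6. In control skin 362 passed without day 1 and 953 without day 6, over the TPA days 570 without day 2, and for their contrast 43 without day 2 and 1460 without day 6. Fewer arrays enter the single sets and the fits without a day, and the single sets were fitted with the additive model. Other causes were not tested. Fcgr1 reversed without day 2, at -0.020.

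For 129 named probe sets, 1649 of 2168 results under other settings kept direction and side of the threshold and 518 lost the call. Of 3870 with 1 array left out, 3537 kept both and 333 lost the call. The D6 probe set has no value with the lowest 50% left out. Passing whichever day was left out, chosen after seeing the data, were 390 to 780 over all settings tried. With the replicate number as a block, which assumes that equal numbers were handled together, 1988 passed, 1878 of them the same, and 30 were over 3-fold. Whether the numbers mark such a pairing was checked on residuals: correlations of arrays with the same number ran from -0.35 to 0.48 (median -0.01), and with different numbers from -0.45 to 0.56 (median 0.01).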

Other observations

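Some probe sets past the test whichever day was left out were not described above, and they were chosen after their values were seen. Cxcl9, a chemokine that interferon gamma induces, was higher in D6-deficient skin at 1.29 (SE 0.18, limma adjusted p = 5.76e-05) and 1.06 (SE 0.14, adjusted p = 3.69e-05) on its 2 probe sets. The first did not keep its sign on all days, and on the second the difference varied between days (adjusted p = 0.00583). Ubd, a ubiquitin-like protein of inflamed tissue, was higher at 1.01 (SE 0.12, adjusted p = 5.16e-06) with variation between days (adjusted p = 0.00293), and Prtn3, a protease of neutrophil granules, at 1.21 (SE 0.19, adjusted p = 2.47e-04). Mup10, a major urinary protein, was lower at -1.21 (SE 0.24, adjusted p = 0.00299), and Plekhf1 at -1.17 (SE 0.15, adjusted p = 1.90e-05).

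Large differences were also seen on probe sets that lack a single gene symbol. A probe set assigned to several genes was at 3.61 (SE 0.67, adjusted p = 0.00142), and like Serpina1b it had 7 WT arrays at the D6-deficient level, all in the higher hybridization set. Its difference was 5.90 within the lower set and 2.15 within the higher (adjusted p = 0.320), where the call was lost. Its low WT arrays, from 3.77 to 4.38, also lay in or just above the range of the Y-linked genes, which bounds these sizes. Of those with no symbol, the lowest was at -2.65 (SE 0.34, adjusted p = 2.20e-05), and the highest at 1.91 (SE 0.24, adjusted p = 1.61e-05).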
